A study of Mus musculus with 48 samples.

Results

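Joints between a broken Jκ1 segment and the other Jκ segments of the mouse Igκ locus were examined in junction lists made by HTGTS-JoinT-seq, a method that amplifies outward from a fixed bait end and reads what that end was joined to. A junction was taken when its prey lay on chromosome 6 (mm9) in a stretch of 1763 bp that starts 201 bp after the Jκ1 segment, ends 635 bp after the Jκ5 segment and holds Jκ2, Jκ3, Jκ4 and Jκ5 but not the bait. These rules gave 222155 of the 8250887 junctions deposited for 48 libraries, or 2.69%. The annotation of the locus holds 105 Jκ and Vκ segments, of which these 4 Jκ segments are described here.

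The cells were vAbl pro-B lines, which are mouse B cell progenitors transformed with the viral Abelson kinase. Of these the wild type (WT) was clone B and the Ku70-/- line was clone B1. Each genotype was thus 1 clone, so that loss of Ku70 and other differences between the clones cannot be told apart. Cells were cycling and untreated, or were given 3 µM STI-571 for 96 h together with DMSO, with 5 µM L67 or with 25 µM L82-G17. STI-571 blocks the Abelson kinase and arrests the cells in G0-G1, where RAG1/2 is made and cuts the Igκ locus. L67 inhibits DNA ligases I and III, and L82-G17 inhibits DNA ligase I. Each of the 2 genotypes and 4 treatments was read from 2 baits, the coding end (Jκ1CE) and the signal end (Jκ1SE) of the Jκ1 break, in 3 libraries, which makes 16 groups. The libraries of a group are numbered 1 to 3 here only to name them. The legends of the study call its experiments biological repeats, but the labels tie no library to a culture and the inhibitor libraries are not described there, so that every p-value measures the spread between these libraries, which may be technical.

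RAG1/2 cuts between a gene segment and the recombination signal sequence beside it. It leaves a hairpin-sealed coding end, which holds the segment, and a blunt signal end, which holds the signal sequence. In nonhomologous end joining (NHEJ), which starts when Ku70 and its partner bind the ends, coding ends are joined to coding ends and signal ends to signal ends. A joint of a coding end to a signal end is called a hybrid joint. Signal sequences with a short spacer between heptamer and nonamer pair with those with a long spacer. The Vκ genes carry the short kind and the Jκ segments the long kind, so that 2 Jκ segments are not a usual pair for RAG1/2.

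The signal sequences of the bait and of the 4 prey segments are printed because the joints pile up against them. They are the plus strand of the mm9 genome, 5′ to 3′, with the nonamer and the heptamer in capitals and the first 12 coding bases after the heptamer.
Jκ1, chr6:70672517-70672567: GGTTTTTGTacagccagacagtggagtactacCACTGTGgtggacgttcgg
Jκ2, chr6:70672871-70672921: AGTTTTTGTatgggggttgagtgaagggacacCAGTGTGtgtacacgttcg
Jκ3, chr6:70673180-70673228: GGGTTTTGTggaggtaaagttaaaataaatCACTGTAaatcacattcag
Jκ4, chr6:70673502-70673553: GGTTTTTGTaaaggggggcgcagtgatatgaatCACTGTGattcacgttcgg
Jκ5, chr6:70673841-70673891: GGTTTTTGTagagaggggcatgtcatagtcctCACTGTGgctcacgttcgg

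Jκ4 and Jκ5 carried the same heptamer and nonamer as Jκ1. Jκ2 differed from Jκ1 by 1 base in the heptamer and by 1 in the nonamer, and so did Jκ3. Read outward from the break, the heptamer of Jκ3 was TACAGTG, and it was the only one that did not open with CAC, the bases that RAG1/2 cutting depends on most. The spacer was 23 bp in Jκ1, Jκ2 and Jκ5, 21 bp in Jκ3 and 24 bp in Jκ4. The coding segments (Igkj2 at 70672910 to 70672952, Igkj3 at 70673217 to 70673252, Igkj4 at 70673542 to 70673579 and Igkj5 at 70673880 to 70673921, all exons on the plus strand) start 354, 661, 986 and 1324 bp after that of Jκ1. Of the 38 bases of the Jκ1 coding segment, 32 were alike in Jκ2, 26 in Jκ3, 27 in Jκ4 and 29 in Jκ5.

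These positions fix what each joint means for a chromosome that carries both breaks and whose Jκ segments still lie as in the mm9 genome. A joint of Jκ1CE to a Jκ signal end closes the DNA between the breaks into a circle, and a joint of Jκ1SE to a Jκ coding end deletes that DNA. Both are hybrid joints. A joint between like ends, coding to coding or signal to signal, inverts the DNA between the breaks. The prey end was told from the strand of the prey: plus for a coding end and minus for a signal end. A plus-strand prey that began before the break was counted to the coding end too. Breaks on different copies of the chromosome cannot be told apart from breaks on the same copy.

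A library was 500000 read pairs, and copies made by PCR were kept, so that counts of joints are not counts of molecules. Distinct joints are not molecules either, since separate events can give the same joint. Libraries held 8294 to 385847 junctions in all. Of the 3 Ku70-/- libraries with STI-571 and DMSO, library 1 of each bait is missing from the supplementary tables of the study and stood apart from the other two. From Jκ1CE it held 9503 Jκ2-Jκ5 joints made of 94 distinct joints, against 586 and 573 in libraries 2 and 3, and from Jκ1SE 2954 made of 47, against 729 and 637. Its largest joint made up 21.0% and 18.0% of its joints, against 2.29% and 1.83% from Jκ1CE and 1.87% and 2.07% from Jκ1SE in the others. Both are called the unlisted libraries, and comparisons that they move are given without them too. In the WT libraries with DMSO, 351, 353 and 384 distinct joints were seen from Jκ1CE and 109, 101 and 109 from Jκ1SE. Any 2 WT libraries with DMSO shared 51.0 to 53.5% of the distinct joints of the one with fewer from Jκ1CE, and any 2 such Ku70-/- libraries 8.51 to 22.3%.

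Arrest was followed by a rise in joints to Jκ2-Jκ5 per 500000 read pairs in both genotypes and from both baits. In WT cells Jκ1CE gave 767, 697 and 895 joints when cycling and 10757, 12798 and 12389 with STI-571 and DMSO, a 15.3-fold rise. Ku70-/- cells gave 257, 453 and 409 when cycling and 9503, 4891 and 4646 with DMSO, a 16.5-fold rise (log2 difference 4.05, or 3.71 without the unlisted library). From Jκ1SE, WT cells went from 337, 488 and 350 to 3118, 3761 and 3900, which was 9.24-fold. Ku70-/- cells went from 1389, 629 and 1219 to 2954, 7321 and 6802, which was 5.16-fold (log2 difference 2.37, or 2.79 without the unlisted library). All arrested libraries lay above all cycling ones in each of these 4 comparisons, and each gave an exact two-sided permutation p of 0.1, the smallest that 3 libraries against 3 allow, or 0.15 adjusted over 18 comparisons. With each joint counted once the log2 differences were 2.90 and 3.11 from Jκ1CE and 3.11 and 1.78 from Jκ1SE, for WT and Ku70-/- cells in that order. The last had overlapping libraries (exact permutation p = 0.4), since the unlisted library held 47 distinct joints and the cycling ones 53 to 112. From Jκ1CE the log2 difference as a share of all junctions was 0.19 in WT and 0.62 in Ku70-/- cells (exact permutation p = 0.4 for each), and per 1000 junctions in the Vκ region 0.14 and 0.27 (exact permutation p = 0.7 for each). As a share of all junctions the joints from Jκ1SE went the other way, with a log2 difference of −0.63 in WT and −1.74 in Ku70-/- cells, and per 1000 junctions in the Vκ region it was −0.75 and −2.74.

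**Figure D1:**
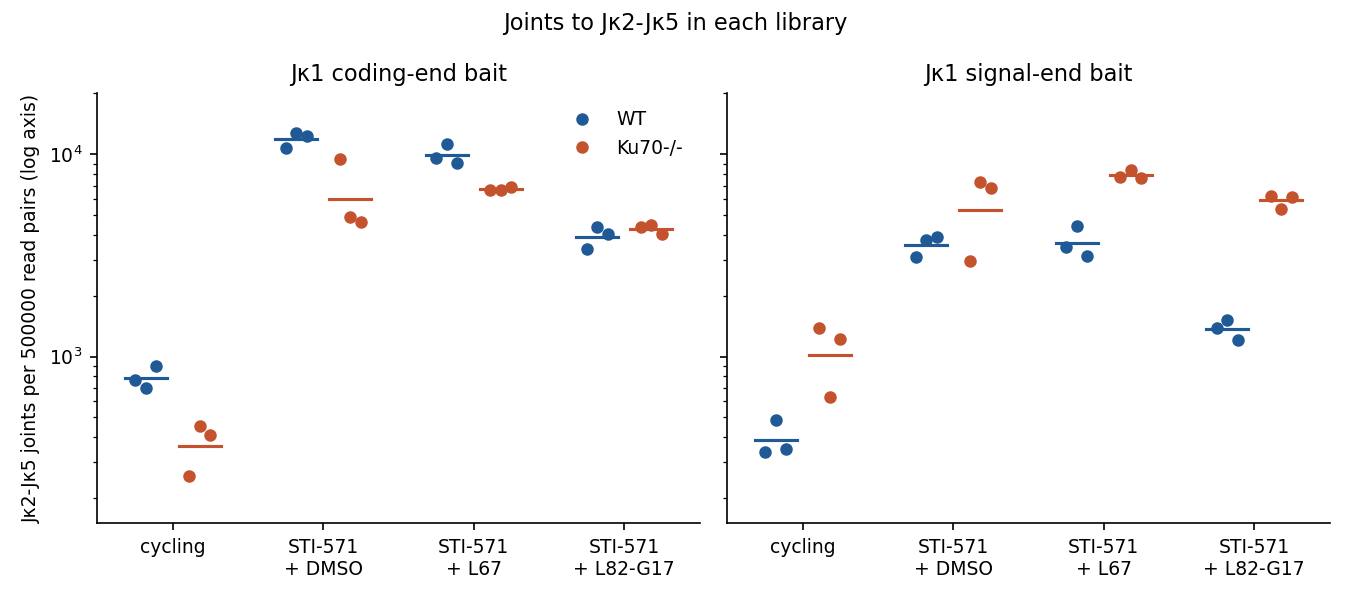
Jκ2-Jκ5 joints per 500000 read pairs on a log axis, for the 4 treatments, with WT in blue and Ku70-/- in red, and 1 panel for each bait. Points are the 3 libraries of a group and lines their geometric means; from both baits every arrested library of a genotype lies above its cycling libraries, and the Ku70-/- library with DMSO that lies apart is the unlisted one.

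How the number of joints differed between the genotypes depended on the scaling from Jκ1CE. Per 500000 read pairs with DMSO and Jκ1CE, Ku70-/- cells gave 1.99-fold fewer joints than WT cells with no overlap of libraries (exact two-sided permutation p = 0.1; log2 difference −1.33 without the unlisted library). The log2 difference was −0.19 with each joint counted once, and the libraries overlapped (exact permutation p = 1). The unlisted library then held 94 distinct joints and the listed ones 586 and 573, against 351 to 384 in WT cells. The order turned when joints were taken as a share of all junctions (log2 difference 0.37, groups overlapping) or per 1000 Vκ junctions (0.70). With Jκ1SE, Ku70-/- cells gave 1.48-fold more joints, and the groups overlapped (exact two-sided permutation p = 0.4). Without the unlisted library that log2 difference was 0.98 and the libraries did not overlap, and with all libraries it was 1.45 as a share of all junctions and 1.65 per 1000 Vκ junctions, both without overlap (exact permutation p = 0.1 for each). WT cells gave 3.34-fold fewer joints from Jκ1SE than from Jκ1CE, again with no overlap, and Ku70-/- cells 1.14-fold fewer, with overlap (exact permutation p = 0.8), which turned to a log2 difference of 0.57 without the unlisted libraries.

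The end of the Jκ segment that was joined separated the genotypes from both baits. In arrested WT cells with DMSO, 20.5, 16.96 and 17.04% of the joints from Jκ1CE went to a coding end, so that most were hybrid joints to a signal end. From Jκ1SE, 96.0, 92.2 and 95.6% went to a coding end, so that most were again hybrid. The coding share of Ku70-/- cells was 66.3, 66.4 and 65.3% from Jκ1CE and 52.2, 48.0 and 49.7% from Jκ1SE. The genotypes did not overlap from either bait: Ku70-/- minus WT was 47.8 percentage points from Jκ1CE and −44.6 from Jκ1SE (exact two-sided permutation p = 0.1 for each, adjusted p = 0.13 over 14 comparisons). The difference from Jκ1CE was 24.3 with each joint counted once and 9.17 when the end was told from the side of the break, both without overlap. That from Jκ1SE was −37.1 and −43.0.

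The same libraries joined Jκ1 to Vκ genes in another way, and this comparison was added after the data were seen. Over the 9 arrested WT libraries of each bait, joints between like ends made up 16.9 to 35.7% of the Jκ2-Jκ5 joints from Jκ1CE but 99.6 to 99.8% of the Vκ joints. From Jκ1SE they made up 4.04 to 30.1% of the Jκ2-Jκ5 joints and 98.0 to 99.0% of the Vκ joints. The Jκ share was the lower one in 9 of 9 libraries for both baits, by 75.7 ± 7.38 (SD, n = 9) and 87.0 ± 8.70 (SD, n = 9) percentage points. An exact two-sided sign-flip permutation test gave p = 0.0039 for each, the smallest that 9 libraries allow, or 0.0078 adjusted over the 4 tests of genotype and bait.

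For Ku70-/- cells the 2 kinds of prey were closer. From Jκ1CE like ends made up 61.6 to 81.7% of the Jκ2-Jκ5 joints and 58.7 to 77.8% of the Vκ joints, and Jκ minus Vκ was −0.15 ± 4.23 percentage points (SD, n = 9; exact permutation p = 0.90). From Jκ1SE the shares were 35.6 to 52.1% and 46.8 to 63.3%, and Jκ minus Vκ was −9.25 ± 11.2 (SD, n = 9; exact permutation p = 0.039, adjusted p = 0.052; lower in 7 of 9 libraries). The difference was −22.6, −27.3 and −20.4 in the libraries with L82-G17, against −4.94 to 0.38 with DMSO and −8.47 to 2.30 with L67. Over the 9 libraries it was −7.88 with each joint counted once (exact permutation p = 0.12). The 9 libraries include the inhibitors and the unlisted library of each bait, without which Jκ minus Vκ was −1.12 from Jκ1CE and −9.79 from Jκ1SE (n = 8; exact permutation p = 0.34 and 0.078).

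**Figure D2:**
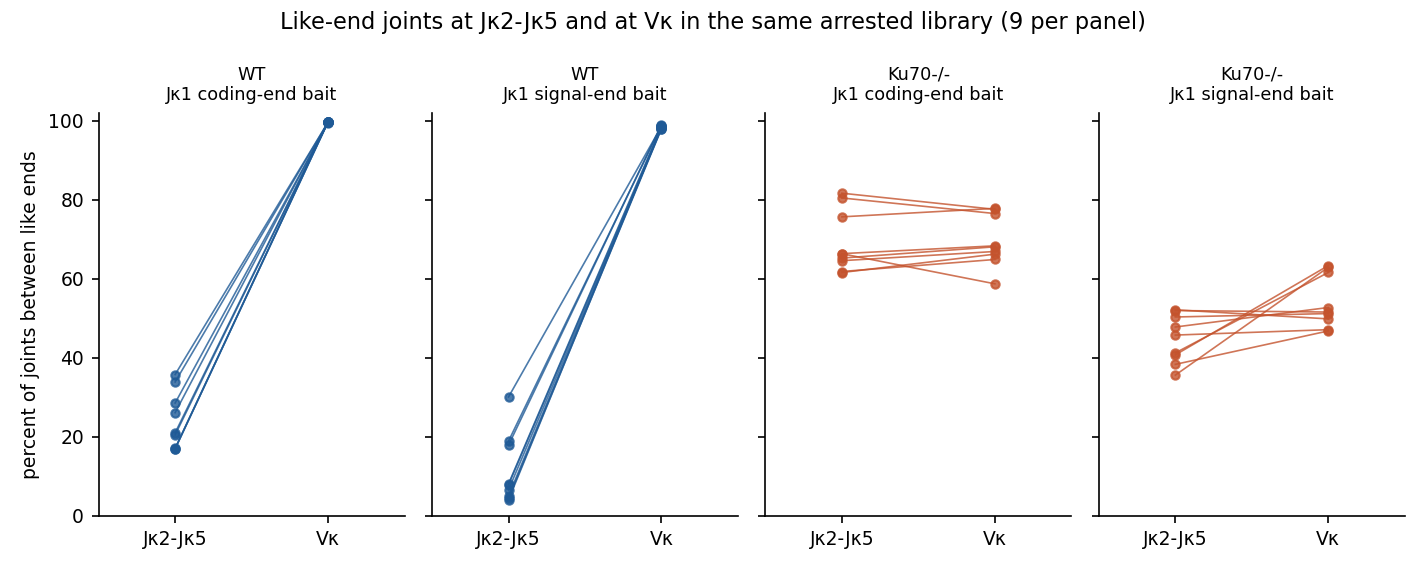
Percent of joints between like ends at Jκ2-Jκ5 and at Vκ genes, with 1 line for each of the 9 arrested libraries of a genotype and bait. All WT lines rise steeply from Jκ to Vκ, and the Ku70-/- lines run near level from Jκ1CE and spread from Jκ1SE.

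The ends that took part in WT Jκ joints were nearly whole. The bases missing from a prey end are given after each prey was placed again by an exact match of the bases that follow the bait. Bases that bait and prey share were counted to the bait. Those missing from the bait are given for joints with a deposited overlap up to 20 bp. That leaves out 34.9 to 40.3% of the WT joints from Jκ1CE with DMSO. The median joint of a WT library with DMSO had lost 1 base from Jκ1CE or 2 to 3 from Jκ1SE. On the prey side it had lost 1 to 2 bases from a coding end, 4 from a signal end joined to Jκ1CE and 0 to 3 from one joined to Jκ1SE. In Ku70-/- libraries with DMSO the median loss was 10 to 15 bases from Jκ1CE and 7 to 12 from Jκ1SE, the unlisted libraries included. Their preys had lost 9 to 41 bases from coding ends and 4 to 11 from signal ends.

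Bait ends were also compared with those in Vκ joints of the same library, over joints with a deposited overlap up to 20 bp. By this count, those in WT Jκ joints were more often shortened. From Jκ1CE the limit left out 25.5 to 40.3% of the Jκ joints of an arrested WT library, and from Jκ1SE 0%. Those left out with DMSO include the most frequent joints to the Jκ2 and Jκ5 signal ends, both counted as holding the full bait end. Whether the difference from Jκ1CE holds with them was not tested. At most 2 bases were missing from Jκ1CE in 75.6 to 81.0% of Jκ joints and in 84.5 to 86.4% of Vκ joints, and from Jκ1SE in 39.1 to 65.0% and 97.9 to 98.9%. Among hybrid joints alone, Jκ1SE was this near to whole in 38.0 to 57.7% of Jκ joints and in 64.9 to 85.7% of Vκ joints. In each of these comparisons the Jκ share was lower in 9 of 9 WT libraries (exact two-sided sign-flip permutation p = 0.0039, adjusted p = 0.0067 over 12 tests). Of the 6 tests in Ku70-/- cells 1 did the same, that of hybrid joints from Jκ1SE, with 0 to 13.2% of Jκ joints and 13.2 to 20.2% of Vκ joints this near to whole (−7.43 percentage points on average, lower in 9 of 9 libraries, exact permutation p = 0.0039, adjusted p = 0.0067). The other 5 had an adjusted p of 0.11 to 0.95.

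In arrested WT cells, joints fell on a few positions beside Jκ2, Jκ4 and Jκ5. The 3 most frequent joints of each bait with DMSO are shown as reads, 5′ to 3′, with the last 16 bases of the bait in lower case and the 24 bases that follow in capitals.
WT Jκ1CE to Jκ2 signal end: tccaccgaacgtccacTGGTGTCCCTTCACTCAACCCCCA
WT Jκ1CE to Jκ4 signal end: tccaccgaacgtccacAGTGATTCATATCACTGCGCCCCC
WT Jκ1CE to Jκ5 signal end: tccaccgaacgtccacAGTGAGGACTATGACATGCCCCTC
WT Jκ1SE to Jκ5 coding end, 1 base lost from the prey and 2 from the bait: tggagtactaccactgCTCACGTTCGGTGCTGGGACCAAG
WT Jκ1SE to Jκ5 coding end, 3 bases lost from the prey and 1 from the bait: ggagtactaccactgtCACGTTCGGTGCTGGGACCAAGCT
WT Jκ1SE to Jκ5 coding end, 3 bases lost from the prey and 3 from the bait: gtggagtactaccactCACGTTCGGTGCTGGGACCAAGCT

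The joint to the Jκ2 signal end counted 1774, 2428 and 2634 in the 3 libraries, 19.0% of all WT Jκ2-Jκ5 joints from Jκ1CE with DMSO. The joint to the Jκ4 signal end counted 1129, 1691 and 1452 (11.9%), and the one to the Jκ5 signal end 896, 1038 and 1033 (8.25%). With shared bases counted to the bait, all 3 held the full Jκ1 coding end, and 3 or 4 bases were shared with the prey. The last 7 bases of the full Jκ1 coding end read CGTCCAC, and their last 3 equal the CAC that opens the signal ends of Jκ2, Jκ4 and Jκ5. They share none with that of Jκ3. The Jκ2 joint lost 5 prey bases, so that its 3 shared bases lie farther inside that end than the opening CAC. The Jκ5 joint lost 3 prey bases and shared 4, so that its shared bases reach past the break. The 3 joints from Jκ1SE counted 531, 510 and 432 (13.7%), 216, 504 and 482 (11.2%) and 361, 174 and 550 (10.1%) and shared 1 or 2 bases.

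By position, WT preys from Jκ1CE with DMSO peaked 3 bases inside the signal ends of Jκ4 (70673538, 40.8% of that end) and Jκ5 (70673876, 35.6%) and 5 bases inside that of Jκ2 (70672904, 46.0%). Each library held at least 849 joints at each of these positions. All peaks here and for Ku70-/- cells below are of preys placed again, with shared bases counted to the bait. Coding end preys peaked at 70672915 in Jκ2, 70673543 in Jκ4 and 70673882 in Jκ5, 5, 1 and 2 bases inside the segment. From Jκ1SE, coding end preys peaked 1 base inside Jκ2 (70672911) and 3 bases inside Jκ4 (70673545) and Jκ5 (70673883). As deposited, the peaks at the Jκ4 and Jκ5 coding ends lay at the whole end from both baits (44.4% and 45.6% of those ends from Jκ1SE). So did the peak at the Jκ4 signal end from Jκ1CE (50.6%). Signal end preys from Jκ1SE peaked at the whole end of Jκ2 (70672909) and Jκ4 (70673541), the latter with 86.1% of 201 joints. At Jκ2, 179 of the 195 joints of that peak came from library 2. At the Jκ5 signal end (70673876) the peak came from 45 joints in library 3 alone.

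Preys of Ku70-/- cells were spread over more positions. At the Jκ4 coding end 65 positions were used from Jκ1CE, against 27 in WT. With DMSO the peaks from Jκ1CE lay 6 bases inside the coding ends of Jκ4 (70673548) and Jκ5 (70673886), with 77 and 147 joints at Jκ4 and 58 and 41 at Jκ5 in the listed libraries. The unlisted library added 1975 joints at that Jκ4 position and 0 at that Jκ5 position. These counts are of reads placed again one by one, and counts of single joints are of reads with the same deposited position, so that a joint can exceed its position where some of its reads were not placed there. Signal end preys from Jκ1SE peaked at the whole end in Jκ2 (355 and 357 joints in the listed libraries), Jκ4 (141 and 356) and Jκ5 (188 and 73), and from Jκ1CE at the whole end in Jκ5 (131 and 86). At the Jκ2 and Jκ4 signal ends (70672870 and 70673519) and the Jκ2 coding end (70672997) from Jκ1CE, and at the Jκ4 coding end (70673583) from Jκ1SE, the peak came mostly from the unlisted library. The remaining peaks were 12 to 334 joints at Jκ3 and at the Jκ2 and Jκ5 coding ends (70672927 and 70673896) from Jκ1SE.

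Over all 3 Ku70-/- libraries with DMSO, the 3 most frequent joints of each bait came nearly all from the unlisted library. From Jκ1CE they went to the Jκ4 coding end (70673548 and 70673551) and the Jκ2 coding end (70672997), with 1996, 939 and 935 joints in the unlisted library and 0 or 5 in each of the others. From Jκ1SE they went to the whole Jκ4 signal end (70673541; 483, 39 and 70 joints), to 41 bases inside the Jκ4 coding end (70673583; 533, 0 and 0) and to 7 bases inside the Jκ4 signal end (70673534; 506, 3 and 0). The most frequent joints of the listed libraries, ranked after these values were seen, were rare beside those of WT cells. Those printed have 0 to 4 shared bases and a bait shortened by 4 to 16 bases.
Ku70-/- Jκ1CE to Jκ4 coding end: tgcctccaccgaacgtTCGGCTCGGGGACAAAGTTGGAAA
Ku70-/- Jκ1CE to Jκ5 signal end: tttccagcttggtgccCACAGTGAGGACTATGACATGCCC
Ku70-/- Jκ1SE to Jκ4 coding end: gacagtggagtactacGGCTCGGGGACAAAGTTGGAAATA
Ku70-/- Jκ1SE to Jκ2 signal end: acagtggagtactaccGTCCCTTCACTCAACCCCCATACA
The first had lost 4 bases of the bait and 8 of the prey, counted 112 and 60 in libraries 2 and 3 and made up 1.80% of their joints. The joint to the Jκ5 signal end had lost 16 bases of the bait and none of the prey and counted 79 and 54. From Jκ1SE, the joint to the Jκ4 coding end had lost 7 and 10 bases and counted 137 and 15, and the joint to the Jκ2 signal end was seen in library 3 alone of these, 129 times. The others among the 3 most frequent were a further Jκ4 coding joint from Jκ1CE (31 and 85) and a Jκ4 coding joint from Jκ1SE that was seen 141 times in library 3 alone. That last joint held the whole bait end and had lost 23 bases of the prey.

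**Figure D3:**
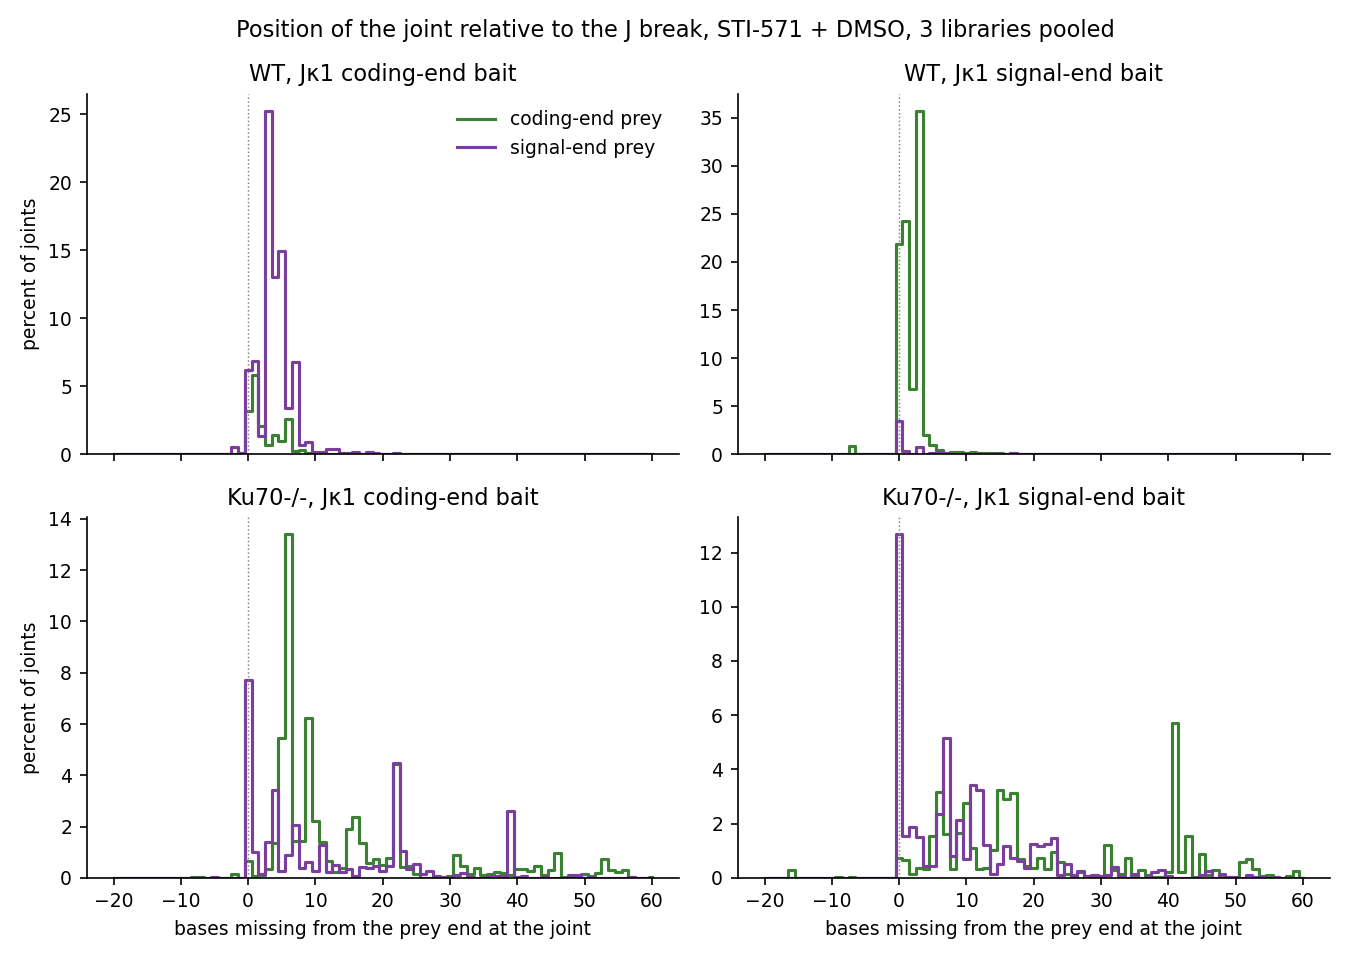
Bases missing from the prey end (x axis; 0 is the whole end, negative values lie beyond the break) against the percent of joints within 100 bp of a Jκ break, STI-571 + DMSO, 3 libraries pooled, with coding end preys in green and signal end preys in purple. The y axes differ between panels, and preys were placed again with shared bases counted to the bait. Most WT joints fall within 10 bases of the break, with the highest points 3 bases in (25.3% signal from Jκ1CE, 35.7% coding from Jκ1SE); Ku70-/- joints spread beyond, and their coding peaks at 6 and 9 bases from Jκ1CE and 41 bases from Jκ1SE come mostly from the unlisted libraries.

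Spread around the breaks was summed as the share of joints within 10 bp of a Jκ break, of those within 100 bp. By the deposited positions that share was 64.6, 61.4 and 58.7% in WT cells from Jκ1CE with DMSO, and 97.9 to 98.0% once the preys were placed again. The deposited alignments of 34.9 to 40.3% of these WT joints overlapped the bait by over 20 bp. In the most frequent joints to the Jκ2 and Jκ5 signal ends the overlap was 46 and 45 bp, and the deposited positions (70672956 and 70673924) lay just past the far end of those coding segments, whose likeness to Jκ1 is given above. From Jκ1SE the WT share was 99.1 to 100% as deposited. The Ku70-/- share with DMSO was 63.3, 44.9 and 41.6% from Jκ1CE, the first being the unlisted library, and 45.3, 45.3 and 45.4% from Jκ1SE. Ku70-/- minus WT was −54.3 percentage points from Jκ1SE with no overlap (exact permutation p = 0.1). From Jκ1CE it was −11.7 with overlapping groups (exact permutation p = 0.3) as deposited, −18.3 with no overlap without the unlisted library, and −50.4 with no overlap (exact permutation p = 0.1) after placing again.

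The parts of the window over 100 bp from every Jκ break, among them the DNA after Jκ5, held few WT joints. They held 0.028 to 0.14% of them from Jκ1CE and 0 to 0.13% from Jκ1SE with DMSO. Of Ku70-/- joints they held 8.66, 7.59 and 5.66% from Jκ1CE and 0.34, 9.59 and 8.13% from Jκ1SE with DMSO, the first value of each being the unlisted library. Cycling Ku70-/- cells had the largest shares there, 34.6, 14.6 and 32.8% from Jκ1CE and 55.0, 41.3 and 54.5% from Jκ1SE.

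Use of the 4 segments was uneven. In WT cells with DMSO, Jκ4 took 48.7, 46.0 and 43.3% of the joints from Jκ1CE that lay within 100 bp of a Jκ break, Jκ2 26.3, 30.9 and 32.9% and Jκ5 24.9, 23.1 and 23.8%. From Jκ1SE, Jκ5 led with 58.4, 51.5 and 61.5%, before Jκ4 with 38.4, 40.9 and 37.4%, and Jκ2 took 3.27, 7.58 and 1.18%. The shares of neighbours in these orders did not overlap between libraries, although the lowest Jκ2 share from Jκ1CE (26.3%) lay close to the highest Jκ5 share (24.9%). In Ku70-/- cells, with the unlisted library first, Jκ4 took 70.2, 47.9 and 44.3% from Jκ1CE, Jκ2 20.1, 27.0 and 30.0% and Jκ5 9.42, 22.6 and 24.8%. From Jκ1SE, Jκ4 took 70.5, 36.6 and 41.7%, Jκ2 26.3, 40.8 and 40.3% and Jκ5 3.16, 21.5 and 15.4%.

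From Jκ1SE the genotypes did not overlap in Jκ2 and Jκ5. The Jκ2 share was higher by 31.8 percentage points in Ku70-/- cells and the Jκ5 share differed by −43.7 (exact two-sided permutation p = 0.1, adjusted p = 0.2 over the 2 baits). From Jκ1CE the shares of Jκ2, Jκ4 and Jκ5 overlapped between the genotypes, with differences of −4.32, 8.10 and −4.97. Without the unlisted library they were −1.52, 0.037 and −0.20. Those of Jκ2 and Jκ4 turned sign with each joint counted once, and the same 2 differences and that of Jκ5 also turned with a 20-bp window.

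Jκ3 was all but missing from WT joints. WT libraries with DMSO held 12, 0 and 0 joints to its coding end from Jκ1CE and none from Jκ1SE, and the other WT libraries held 1 in all. Ku70-/- libraries with DMSO held 22, 99 and 33 plus-strand preys counted to its coding end from Jκ1CE and 0, 41 and 160 from Jκ1SE. Both ends of Jκ3 together took 0 to 2.64% of the joints of these libraries within 100 bp of a Jκ break. In the listed libraries most of these preys began before the break, on the signal side: 99 of 99 and 31 of 33 from Jκ1CE, with 49 and 21 of them 44 bp before it, and 37 of 41 and 111 of 160 from Jκ1SE. None began within 20 bp of the break. The Jκ3 share was higher in Ku70-/- cells by 1.19 percentage points from Jκ1CE without overlap (exact permutation p = 0.1). From Jκ1SE it was higher by 1.25 with overlap (exact permutation p = 0.4). Within 20 bp these differences were 0.20 (exact permutation p = 0.4) and 0. Cycling Ku70-/- libraries gave 47, 72 and 46 from Jκ1CE and 40, 63 and 91 from Jκ1SE. Their most frequent joint from Jκ1CE read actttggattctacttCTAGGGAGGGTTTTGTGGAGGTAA, lay 44 bp before the Jκ3 break (70673173) and counted 45, 49 and 43. Its read runs on through the Jκ3 nonamer printed above.

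**Figure D4:**
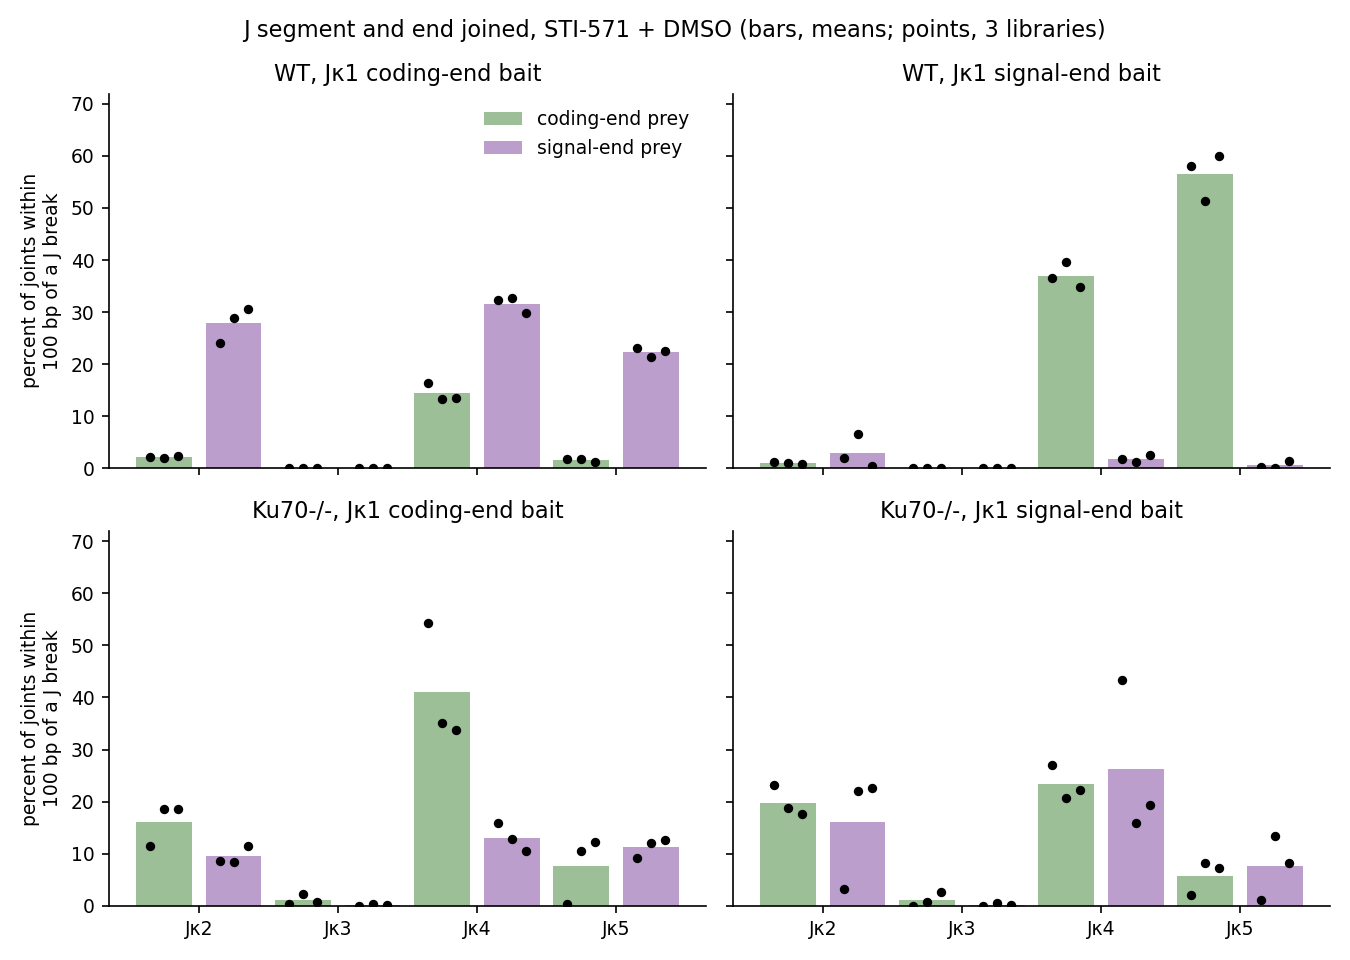
Percent of joints at the coding (green) and signal (purple) end of each Jκ segment, of those within 100 bp of a Jκ break, STI-571 + DMSO. Bars are means and points the 3 libraries, with library 1 on the left; WT joints from Jκ1CE stand on signal ends of Jκ2, Jκ4 and Jκ5 and from Jκ1SE on coding ends of Jκ4 and Jκ5, and the left Ku70-/- point, the unlisted library, is the highest at Jκ4 coding from Jκ1CE and Jκ4 signal from Jκ1SE.

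Each Jκ end was then fitted as a site beside all Vκ gene ends with limma on log2(joints + 1), and called at a Benjamini-Hochberg adjusted p under 0.05. The Jκ3 signal end fell below the filter on low counts, which left 7 Jκ ends among 177 sites from Jκ1CE and 178 from Jκ1SE. With arrest in WT cells and Jκ1CE, 6 of 7 rose, against 63.8% of all sites called, with a median log2 difference of 4.37 against 3.35 over all sites. The signal ends led. The Jκ2 signal end held 52, 15 and 44 joints when cycling and 2588, 3700 and 3792 with DMSO (log2 difference 6.62 ± 0.62 (SE), adjusted p = 1.05e-08). The Jκ4 coding end, which held 471, 474 and 613 when cycling and 1757, 1702 and 1668 with DMSO, rose least among those called (1.73 ± 0.40, adjusted p = 0.00069). Arrest of Ku70-/- cells also raised 6 of 7 from Jκ1CE, against 83.6% of all sites, with Jκ4 signal from 6, 0 and 0 to 1379, 579 and 458 joints. With each library scaled by its junctions, 2 of 7 were called in WT cells from Jκ1CE, against 7.91% of all sites.

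From Jκ1SE, arrest in WT cells raised 5 of 7 Jκ ends and lowered 1, against 76.4% of all sites called. The one that fell was the Jκ4 signal end, from 216, 454 and 259 joints to 57, 46 and 98 (log2 difference −2.19 ± 0.54 (SE), adjusted p = 0.0014). It was the only one of the 178 sites that was called lower, and its cycling joints were nearly all the same 1 joint, 214 of 216, 447 of 454 and 254 of 259. In distinct joints the end held 3 to 5 per library when cycling and 1 to 4 with DMSO. The Jκ5 coding end rose most, from 41, 7 and 24 to 1813, 1932 and 2337 joints (6.63 ± 0.68, adjusted p = 4.25e-08). Arrest of Ku70-/- cells raised 6 of 7, against 80.3% of all sites, with the Jκ4 signal end among them (85, 20 and 62 to 1279, 1057 and 1213). Scaled by junctions, 3 of 7 were called in WT cells from Jκ1SE, against 24.2% of all sites.

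Between the genotypes with DMSO and Jκ1CE, 3 Jκ ends were lower and 1 higher in Ku70-/- cells, against 90.4% of all sites called. Those lower were the signal ends of Jκ2 (log2 difference −2.66 ± 0.62), Jκ4 (−2.40 ± 0.60) and Jκ5 (−2.10 ± 0.58), and the one higher was the site of plus-strand preys counted to Jκ3 (4.18 ± 0.83, SE), most of which lay before the break in the listed libraries. The coding ends of Jκ2, Jκ4 and Jκ5 did not pass the test. From Jκ1SE, 5 Jκ ends were higher and 1 lower, against 68% of all sites called. The Jκ3 site was 1 of the 5 and passed the filter in the same way, with WT groups at 0 to 0.33 joints on average. The median log2 difference was 4.15 over the Jκ ends and −0.54 over all sites. The Jκ4 signal end was higher by 4.19 ± 0.54 (SE) and the Jκ5 coding end differed by −3.04 ± 0.68 (SE). With each joint counted once 1 of 6 Jκ ends was called from Jκ1CE, against 78.3% of 138 sites, and with only the 2 groups in the fit 3 of 7 were called from Jκ1SE, against 48.9% of 184 sites.

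The structure of the joints was sorted into direct joints, joints with microhomology, where bait and prey share bases, and joints with inserted bases. Only joints with a deposited overlap up to 20 bp were sorted, which leaves out 34.9 to 40.3% of the WT joints from Jκ1CE with DMSO. In WT cells with DMSO and Jκ1CE, microhomology of 2 or more bases made up 56.5 to 58.2% of the joints, 1 base 13.2 to 14.9%, direct joints 16.5 to 20.0% and insertions 10.2 to 11.8%. With preys placed again, which keeps the joints left out, the first was 61.1% ± 1.08 (SD, n = 3) and direct joints 14.1% ± 1.12 (SD, n = 3). From Jκ1SE, 1 shared base made up 41.0 to 47.3% and direct joints 28.9 to 38.4%. In Ku70-/- cells direct joints made up 76.1, 43.5 and 46.8% from Jκ1CE, unlisted library first, and 70.0, 56.9 and 54.7% from Jκ1SE. Microhomology of 2 or more bases made up 1.92, 25.0 and 20.5% there from Jκ1CE and 19.2, 21.0 and 20.6% from Jκ1SE, and insertions at most 4.31%. With preys placed again, the insertions of Ku70-/- cells were 1.93, 7.17 and 6.65% from Jκ1CE and 2.55, 4.50 and 4.04% from Jκ1SE.

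All 4 classes separated the genotypes from both baits (exact two-sided permutation p = 0.1 for each). Ku70-/- minus WT was 37.3 and 25.4 percentage points for direct joints, −41.3 and 7.47 for microhomology of 2 or more bases, 12.4 and −25.9 for 1 base and −8.33 and −6.96 for insertions, from Jκ1CE and Jκ1SE in that order. Without the unlisted libraries they were 27.0 and 20.7, −34.4 and 8.01, 14.8 and −22.2, and −7.42 and −6.50. The 8.01 had an exact permutation p of 0.2, though the libraries did not overlap. Counting each joint once moved these differences too. From Jκ1CE they were 9.06 for direct joints and 3.35 for longer microhomology, both with overlap (exact permutation p = 0.4). From Jκ1SE direct joints differed by 12.5, and 1-base microhomology turned to 5.76.

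**Figure D5:**
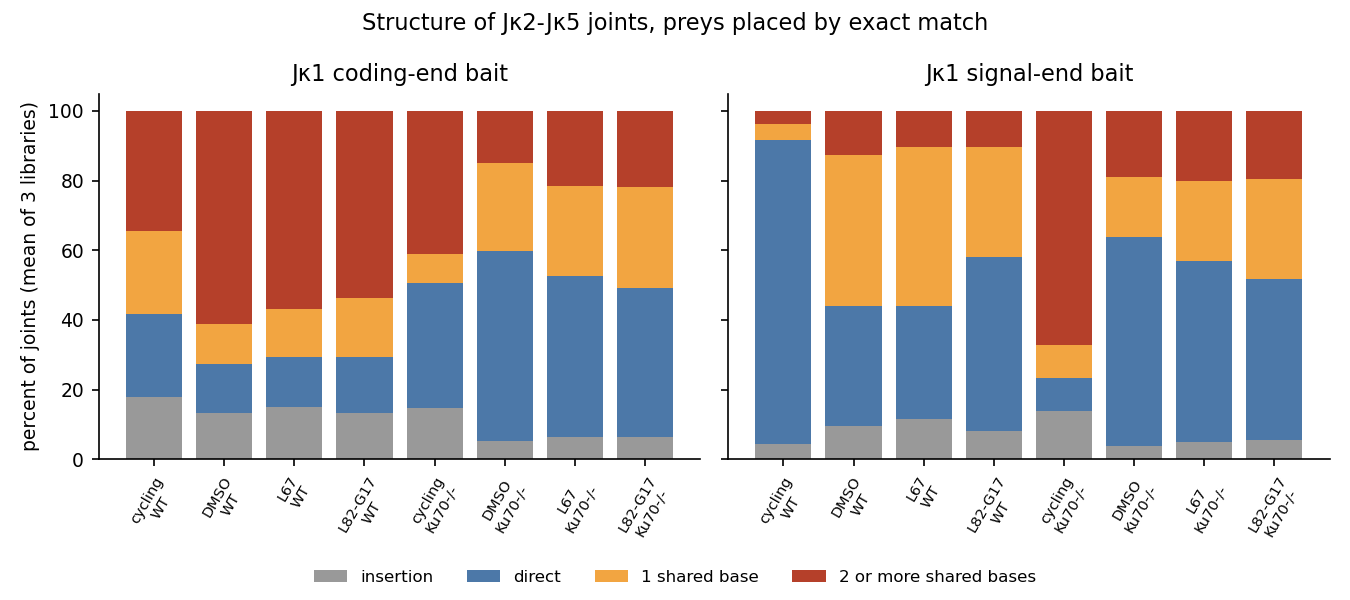
Joint structure in the 8 groups of each bait as stacked percentages, means of 3 libraries, after preys were placed again by exact match. Joints with 2 or more shared bases (red) are the largest part of each arrested WT bar from Jκ1CE, 1 shared base (orange) is largest in WT with DMSO or L67 from Jκ1SE, and direct joints (blue) are the largest part in cycling WT cells and in WT cells with L82-G17 from Jκ1SE.

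The most frequent joint of cycling WT cells is given here for each bait. From Jκ1SE in cycling WT cells, 1 joint made up 77.9% of all Jκ2-Jκ5 joints, 214, 447 and 254 per library. It is the direct joint of the whole Jκ1 signal end to the whole Jκ4 signal end. On a chromosome with the segments as in mm9, that product inverts the 986 bp between the breaks.
Cycling WT Jκ1SE to Jκ4 signal end: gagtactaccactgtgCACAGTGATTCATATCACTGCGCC
The same joint was found in every arrested WT library, 32, 46 and 86 times with DMSO, 106, 276 and 140 times with L67 and 220, 289 and 195 times with L82-G17. The cycling and DMSO libraries did not overlap. From Jκ1CE the most frequent joint of cycling WT cells went to the Jκ4 coding end with 1 base lost on each side, 101, 148 and 122 times, and was seen 579, 455 and 505 times with DMSO.
Cycling WT Jκ1CE to Jκ4 coding end: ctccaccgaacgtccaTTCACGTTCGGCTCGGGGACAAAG

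By count, most joints of cycling WT cells were between like ends and most of arrested WT cells were hybrid, and from Jκ1SE the cycling share rests largely on the 1 recurrent joint above. From Jκ1CE the coding share was 67.7, 71.0 and 71.5% when cycling, and from Jκ1SE 34.4, 6.97 and 19.9%. Arrest changed these shares by −51.9 and 74.1 percentage points with no overlap of libraries, or by −28.2 and 32.5 with each joint counted once, when 57.0% ± 11.4 (SD, n = 3) of the cycling joints from Jκ1SE went to a coding end. In Ku70-/- cells arrest changed the coding share by −30.0 from Jκ1CE and −38.4 from Jκ1SE, also with no overlap, and these 2 differences became 10.8 and 7.82 when the end was told from the side of the break instead of the strand. By strand, preys that began before a break count as coding. The median plus-strand prey of a cycling Ku70-/- library had lost −7 to 5 bases from Jκ1CE and −30 to 13 from Jκ1SE. Negative values lie before the break. The shares also leave out joints over 100 bp from every break, 14.6 to 34.6% and 41.3 to 55.0% in these libraries. In cycling Ku70-/- cells 66.1, 78.3 and 61.1% of the joints from Jκ1SE held 2 or more shared bases. Their most frequent joint lay 502 bp after the Jκ5 break (70674382) and counted 32, 34 and 111.

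The 2 inhibitors were given at different doses, shared the DMSO libraries as their control and are not compared with each other. With L82-G17 at 25 µM, WT cells gave 3388, 4354 and 4037 joints from Jκ1CE and 1384, 1523 and 1206 from Jκ1SE, 3.06-fold and 2.62-fold fewer than with DMSO. No WT library with L82-G17 reached the lowest with DMSO (exact permutation p = 0.1 for each). Junctions to Vκ genes fell too: per 1000 Vκ junctions the log2 difference was −0.65 from Jκ1CE and −0.02 from Jκ1SE, the latter with overlap. Ku70-/- cells with L82-G17 gave 4361, 4462 and 4019 joints from Jκ1CE and 6256, 5359 and 6175 from Jκ1SE. Those were log2 differences of −0.49 without overlap and 0.16 with overlap (exact permutation p = 0.1 and 1), or −0.16 and −0.25 without the unlisted libraries. They were 0.79 and 1.08 with each joint counted once, both with overlap (exact permutation p = 0.7 and 0.8). The libraries with L82-G17 held 475 to 633 distinct joints from Jκ1CE and 461 to 755 from Jκ1SE. The listed DMSO libraries held 573 and 586, and 637 and 729, and the unlisted ones 94 and 47. As a share of all junctions the log2 differences were −0.35 with overlap and 0.80 without, and per 1000 Vκ junctions −0.48 with overlap and 0.83 without (exact permutation p = 0.1 for both from Jκ1SE).

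With L67 at 5 µM the WT counts were 9618, 11197 and 9093 from Jκ1CE and 3467, 4404 and 3152 from Jκ1SE. Both overlapped those with DMSO, with log2 differences of −0.27 and 0.02. L67 in Ku70-/- cells gave 6696, 6660 and 6878 from Jκ1CE, between the unlisted and the listed DMSO libraries (log2 difference 0.17, exact permutation p = 0.7, or 0.50 without the unlisted one), and 7756, 8349 and 7631 from Jκ1SE, above all 3 DMSO libraries (log2 difference 0.58, or 0.16 without the unlisted one; exact permutation p = 0.1). Counting each joint once gave 1.35 from Jκ1CE and 1.52 from Jκ1SE, both without overlap (exact permutation p = 0.1 for each). These values include the unlisted libraries, with 94 and 47 distinct joints. The listed ones held 573 and 586 from Jκ1CE and 637 and 729 from Jκ1SE, against 677 to 954 and 782 to 821 with L67. The difference without the unlisted libraries was not tested. The effects of L67 and L82-G17 on the number of joints were set against each other between genotypes by permuting libraries within each genotype. The largest difference was that for L82-G17 from Jκ1SE, 1.55 on the log2 scale (exact p = 0.05, adjusted p = 0.3 over 6 tests, 0.005 being the smallest possible), or 1.13 without the unlisted library (exact p = 0.1). That for L67 from Jκ1CE was 0.44 (exact p = 0.255), or 0.77 without the unlisted library (exact p = 0.01).

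Single Jκ ends seldom passed the site test with an inhibitor. With L82-G17 in WT cells and Jκ1SE, 1 was higher and 1 lower of 7, against 8.99% of all sites called. The Jκ4 coding end fell from 1139, 1493 and 1357 joints to 358, 454 and 384 (log2 difference −1.73 ± 0.39 (SE), adjusted p = 0.0088), and the Jκ4 signal end rose from 57, 46 and 98 to 221, 340 and 199 (1.94 ± 0.54, adjusted p = 0.023). That end was the only site of the 178 called higher, and 220, 289 and 195 of its joints with L82-G17 were the same 1 joint, with 2 to 6 distinct joints per library. Without WT library 1 or 2 with DMSO, or 1 or 2 with L82-G17, 1 Jκ end was called, against 4.47 to 6.70% of all sites, and with each joint counted once none of 6 was, against 0.847% of 118 sites.

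No Jκ end was called by limma in the other inhibitor comparisons. With L82-G17 in WT cells and Jκ1CE, 1.13% of all sites were called, and the 3 Jκ signal ends had an unadjusted p under 0.05, as did 17.5% of all sites, with log2 differences of −1.95 at Jκ2, −1.91 at Jκ4 and −1.83 at Jκ5 (adjusted p = 0.078 for each). With only the groups compared in the fit, 6 of 6 Jκ ends were called there, against 75% of 120 sites. With L82-G17 in Ku70-/- cells 0% of all sites were called from Jκ1CE and 0.562% from Jκ1SE, and 2 and 1 Jκ ends had an unadjusted p under 0.05, against 14.7% and 11.8% of all sites. With L67 the shares of all sites called were 1.13% in WT and 0% in Ku70-/- cells from Jκ1CE, and 0.562% and 0% from Jκ1SE. The Jκ ends with an unadjusted p under 0.05 were 0 and 1 from Jκ1CE, against 2.26% and 14.1% of all sites, and 1 and 2 from Jκ1SE, against 5.06% and 9.55%.

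With L82-G17 the coding share moved by count in both genotypes. In WT cells the coding share from Jκ1CE was 33.9, 28.5 and 35.7%, above all DMSO libraries by 14.6 percentage points on average, and that from Jκ1SE was 82.1, 69.9 and 81.1%, below all DMSO libraries with a difference of −16.8. WT libraries held 228 to 458 joints to a signal end from Jκ1SE with L82-G17 and 126 to 295 with DMSO. Of these, 195 to 289 and 32 to 86 were the 1 recurrent joint to the Jκ4 signal end. The difference without that joint was not tested. Among Ku70-/- joints the coding share was 81.7, 75.7 and 80.5% from Jκ1CE and 59.3, 64.4 and 58.8% from Jκ1SE, above all DMSO libraries by 13.3 and 10.8. Each of these 4 differences had an exact permutation p of 0.1 (adjusted p = 0.13). With each joint counted once those from Jκ1CE were 7.92 in WT and 19.1 in Ku70-/- cells (exact permutation p = 0.1 for each), and those from Jκ1SE were −4.15 (exact permutation p = 0.4) and 6.72 (exact permutation p = 0.3). With L67 the coding share was 21.0, 16.9 and 26.1% in WT cells from Jκ1CE and 95.0, 91.9 and 93.4% from Jκ1SE, overlapping DMSO. Among Ku70-/- joints it was 61.6, 64.6 and 61.8% from Jκ1CE, with a difference of −3.31 and no overlap. Without the unlisted library that difference was −3.13, also without overlap, and with each joint counted once 4.32 (exact permutation p = 0.9). The 4.32 includes the unlisted library, whose share was then 47.1%. The listed DMSO libraries had 63.5 and 65.2% and those with L67 62.0 to 63.6%. By count, the Ku70-/- share with L67 from Jκ1SE was 61.7, 54.3 and 47.9%, with overlap.

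Preys of Ku70-/- joints lay farther from the breaks with either inhibitor from Jκ1SE. The share within 10 bp was 34.4, 37.5 and 32.2% with L82-G17 and 37.4, 37.4 and 36.7% with L67, all below the 3 DMSO libraries, with differences of −10.6 and −8.15 percentage points. From Jκ1CE it was 29.2, 31.1 and 32.1% with L82-G17, below all DMSO libraries (difference −19.1, or −12.4 without the unlisted library), and 40.0, 38.7 and 42.4% with L67, overlapping DMSO (−9.55, or −2.87 without the unlisted library). The exact permutation p was 0.1 for the 3 without overlap and 0.2 for the last (adjusted p = 0.15 and 0.24 over 6 tests). Each joint counted once, the values with L82-G17 were 26.9% ± 2.58 (SD, n = 3) from Jκ1CE and 32.1% ± 0.67 (SD, n = 3) from Jκ1SE, against 40.4% ± 8.84 and 40.3% ± 0.32 (SD, n = 3) with DMSO.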

How the data were processed

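DNA from 48 libraries of vAbl pro-B cells was read by HTGTS-JoinT-seq. The authors demultiplexed and trimmed the reads, sampled 500000 read pairs per library with Seqtk, aligned them to mm9 (Bowtie2 in the submitters' processing notes), called junctions with TranslocWrapper.pl, kept duplicate reads and added junctions near the bait. The deposited lists hold 1 junction per line, with coordinates and no normalized unit.

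Lines in the window on chromosome 6 were counted here per library with Python 3.11.15, pandas 2.3.3 and numpy 2.4.6, and the genome (NCBIM37, the mm9 assembly, with its GENCODE annotation) was read with pysam 0.24.0. A joint belonged to a Jκ segment if it lay within 100 bp of that break. Structure was scored from the deposited overlap of bait and prey, up to 20 bp: above 0 is microhomology, 0 is direct and below 0 is an insertion. Preys were also placed again by a unique exact match of 16 bases after the bait, which failed for 0.451% of lines, a step chosen after the data were seen. Of the lines with an overlap up to 20 bp, 97.5% kept their position.

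Groups came from the labels. Groups of 3 libraries were compared by two-sided exact permutation of libraries, with Benjamini-Hochberg adjustment within each family. Sites with a mean of at least 10 joints were fitted over all groups of a bait with limma 3.58.1 in R 4.3.3 on log2(joints + 1), a step tested on simulated data. Every Jκ end is named, with the top position of each end and the 3 most frequent joints of each genotype and bait with DMSO. The segments, lists and tests were chosen with earlier results of these data known. Alternatives were each joint counted once (same prey position, strand, bait end and overlap), shares of all junctions or per 1000 Vκ junctions, other windows, pseudocounts and filters, the prey end told by its side of the break and not by strand, and each library left out in turn. PCR copies are not separate molecules, and a joint counted once can stand for more than 1 event, so that counts carry no counting intervals.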

Additional observations from a re-analysis of the deposited data

Results flagged for a closer look

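The effect of arrest on the percent of joints to a coding end differed between the genotypes from Jκ1SE. Arrest moved it by 74.1 percentage points in WT and by −38.4 in Ku70-/- cells, and Ku70-/- minus WT was −112 (exact permutation of libraries within genotypes, p = 0.005, the smallest possible; adjusted p = 0.015 over 6 tests added after the data were seen). By strand, preys that began before a break count as coding, and many in cycling Ku70-/- cells did. When the end was told from the side of the break, the difference was −74.7 (exact p = 0.075). The cycling WT share rests largely on 1 recurrent joint of the Jκ1 to the Jκ4 signal end, which made up 77.9% of those Jκ2-Jκ5 joints. The change without that joint was not tested. The WT change was smaller with each joint counted once, which left 9 to 15 distinct joints per cycling WT library. The mean share to a signal end was then 43.0% cycling and 10.5% with DMSO in WT cells. In Ku70-/- cells it was 12.9% and 47.6%.

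The effect of L82-G17 on the same share from Jκ1SE also differed, with −16.8 points in WT and 10.8 in Ku70-/- cells, a difference of 27.7 (exact permutation p = 0.005; adjusted p = 0.015). With each joint counted once it was 10.9 (exact p = 0.095). In WT cells 195 to 289 joints per library with L82-G17 were the 1 recurrent joint to the Jκ4 signal end, against 32 to 86 with DMSO. The difference without that joint was not tested.

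The effect of L67 on that share from Jκ1CE was 3.18 points in WT and −3.31 in Ku70-/- cells, a difference of −6.49 (exact permutation p = 0.04; adjusted p = 0.08). With each joint counted once it turned to 2.74, without the unlisted library it was −6.31 (exact p = 0.08), and leaving out 1 library at a time it missed 0.05 for 9 of the 12. The 2.74 includes the unlisted library, whose share was then 47.1% against 63.5 and 65.2% in the listed DMSO ones.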

How the results depend on the processing

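Of 901 alternatives run on 84 results, 41 turned a direction. No test of 3 libraries against 3 passes 0.05, the smallest p being 0.1, so that for most results no threshold was there to cross, and sizes moved widely (with each joint once, direct joints between genotypes from Jκ1CE went from 37.3 to 9.06). No paired analysis was possible because the labels give no replicate numbers. PCR copies limit all counts, and the cause of the changes below was not tested.

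In log2 joints, Ku70-/- minus WT from Jκ1CE turned to 0.56 in cycling cells per Vκ junction, and with DMSO to 0.37 as a share of all junctions and 0.70 per Vκ junction. Arrest from Jκ1SE turned to −0.63 and −0.75 in WT and −1.74 and −2.74 in Ku70-/- cells by these 2 scalings. L67 in Ku70-/- cells from Jκ1CE turned to −0.041 and −0.056, and L82-G17 there to 0.79 with each joint once. That 0.79 includes the unlisted library, with 94 distinct joints against 573 and 586 in the listed ones. Without the unlisted libraries, L82-G17 in Ku70-/- cells from Jκ1SE turned to −0.25 and the difference between baits in Ku70-/- cells to 0.57.

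In the percent of joints to a coding end, the side of the break turned arrest in Ku70-/- cells to 10.8 from Jκ1CE and 7.82 from Jκ1SE. Each joint once turned L67 to 4.32 in Ku70-/- cells from Jκ1CE, and from Jκ1SE to 1.69 in WT and −2.52 in Ku70-/- cells. The 4.32 includes the unlisted library, whose share was 47.1% against 63.5 and 65.2% in the listed DMSO ones. In segment shares, Ku70-/- minus WT turned with each joint once to 11.3 (Jκ2, Jκ1CE), −6.60 (Jκ4, Jκ1CE) and −3.21 (Jκ4, Jκ1SE), and within 20 bp to 8.18, −12.8 and 4.42 for Jκ2, Jκ4 and Jκ5 from Jκ1CE. In structure it turned with each joint once to 5.76 for 1 shared base from Jκ1SE and 3.35 for more from Jκ1CE, and to −18.4 for microhomology from Jκ1SE with 1 base included. Jκ minus Vκ in like ends of Ku70-/- cells from Jκ1SE had an exact permutation p of 0.12 with each joint once (−7.88) and 0.078 without the unlisted library (−9.79).

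Between the genotypes, the arrest effect on log2 joints from Jκ1CE turned to −0.22 without the unlisted library. The L67 effect from Jκ1CE passed 0.05 at 1.40 with each joint once (exact p = 0.015) and at 0.77 without the unlisted library, and that of L82-G17 at 1.65 with each joint once (exact p = 0.035). Both values with each joint once include the unlisted library, with 94 distinct joints against 573 and 586 in the listed ones. In coding shares from Jκ1CE, arrest passed at 30.1 by side of the break (exact p = 0.02), L67 came to 2.74 with each joint once, −3.23 by side and −6.31 without the unlisted library, and L82-G17 to 11.2 with each joint once and 7.77 by side. From Jκ1SE, arrest came to −74.7 by side, and with each joint once L67 to −4.21 and L82-G17 to 10.9.

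Of 7 Jκ ends (6 with each joint once, and 6 or 7 with only the groups compared), scaling by all junctions gave 2 calls for arrest in WT cells (7.91% of all sites called) and 2 between genotypes (65%) from Jκ1CE, 3 for arrest in WT cells from Jκ1SE (24.2%) and 1 for L82-G17 there (1.12%). Each joint once gave 1 between genotypes from Jκ1CE (78.3%) and 0 for L82-G17 in WT cells from Jκ1SE (0.847%). With only the groups compared, L67 in WT cells gave 1 (11.2%) and L82-G17 in WT cells 6 (75%) from Jκ1CE, and the genotypes gave 3 from Jκ1SE (48.9%). A pseudocount of 5 gave 3 for L82-G17 in WT cells from Jκ1CE (10.2%). Where 7 Jκ ends were tested, 1 was the plus-strand Jκ3 site, which passed the filter only through Ku70-/- cells.

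Leaving out 1 library turned a direction, crossed 0.05 or moved a count over 1.5 times in 11 results. In log2 joints the ranges were −0.016 to 0.50 for L67 in Ku70-/- cells from Jκ1CE, −0.11 to 0.13 for L67 in WT cells from Jκ1SE, −0.25 to 0.40 for L82-G17 in Ku70-/- cells from Jκ1SE and −0.42 to 0.23 between baits in Ku70-/- cells. Between genotypes they were −0.22 to 0.30 for arrest and 0.25 to 0.77 for L67 from Jκ1CE, and 1.13 to 1.79 for L82-G17 from Jκ1SE, which passed 0.05 without Ku70-/- library 2 or 3 with DMSO (1.79 and 1.74). In coding shares they were −8.69 to −4.12 for L67 and −3.36 to 0.52 for L82-G17 from Jκ1CE and 2.19 to 9.09 for L67 from Jκ1SE, which passed 0.05 without Ku70-/- library 3 with L67 (9.09). The L67 value from Jκ1CE missed 0.05 for 9 of the 12 libraries left out. Calls for L82-G17 in WT cells from Jκ1SE were 1 to 2 (4.47 to 8.33% of all sites). Called Jκ ends were 5 to 6 for arrest in Ku70-/- cells from Jκ1CE (68.8 to 93.8% of all sites) and Jκ1SE (65.4 to 92.8%) and in WT cells from Jκ1SE (66.1 to 73.7%), and between genotypes 4 to 5 from Jκ1CE (80.8 to 91%) and 5 to 6 from Jκ1SE (60.9 to 73.3%).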
